A study of Mus musculus with 9 samples.

Results

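The 46 genes described here encode the folding, translocation and degradation machinery of the endoplasmic reticulum (ER). They were chosen by symbol from lists written for 5 roles, 46 of the 24493 rows of the expression table, and were followed over 14 days in a study of nutrient and oxygen deprivation. There were 11 chaperones and co-chaperones, 9 disulfide enzymes, 12 subunits of the translocon, the signal peptidase and the oligosaccharyltransferase (OST), 10 genes of ER-associated degradation, and 4 stress sensors and transcription factors. All 46 passed the filter for testing, at least 1 TPM in at least 3 samples, which kept 12693 rows in all. Ero1l and Ero1lb are older names of Ero1a and Ero1b.

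Total RNA of 6620c1, a mouse pancreatic tumor cell line, was sequenced in 9 samples, 3 each at day 0, day 2 and day 14. Per the labels, the cells were kept in DMEM with 2.5 mM glucose and 0.5% serum (fetal calf). Amino acids were cut to 20% of the usual level, and no further treatment was given. The labels name this medium for every sample, also those of day 0, and no oxygen level is stated. Whether the day 0 cells had already been in this medium is therefore not certain. No sample of day 2 or day 14 is labelled as a culture in full medium. The effects of the medium and of time spent in culture thus cannot be told apart. The sources used here give neither the genotype of the tumor nor the meaning of a WT prefix on the column names, all samples come from 1 cell line, and nothing says that the 3 samples of a day were separate cultures. Spread between samples, on which every p-value rests, may thus be technical. Values are TPM, transcript abundances, which are corrected for length and sum to the same total in each sample. They can be compared between genes, but they keep no read totals, so depth is unknown.

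The 9 samples held together by day. Across the tested genes, the correlation of log2(TPM + 1) was 0.947 to 0.979 within a day and 0.841 to 0.937 between days. The Mir6236 row took 8.27% to 11.3% of all TPM at day 0, 13.2% to 22.5% at day 2 and 11.04% to 13.7% at day 14, which lowers every other TPM in proportion, so results were also computed without it. The keratins Krt8, Krt18, Krt19 and Krt7 and the cadherin Cdh1 were high in every sample, and the 6 epithelial markers summed to 10785 to 11441 TPM at day 0, 5456 to 7572 at day 2 and 6786 to 8543 at day 14. The epithelial marker Epcam was low, with 0.429 to 2.80 TPM at days 0 and 2 and 10.9 to 19.8 TPM at day 14. Of the markers of other cells, 6 of 7 fibroblast, 5 of 6 leukocyte, 3 of 3 endothelial, 5 of 7 acinar and 3 of 4 islet genes stayed under 1 TPM in all samples. Cela2a, Ins1, Gcg and Sst were at 0 throughout. The leukocyte sum went from 2.09 to 2.39 TPM at day 0 to 5.90 to 8.38 TPM at day 14, most of it Cd68, with the leukocyte-defining Ptprc at 0.515 TPM or less. The acinar sum went from 1.27 to 1.53 TPM to 4.46 to 5.79 TPM, most of it Cela1. The fibroblast sum reached 3.12 TPM at day 2 and the endothelial sum 0.979 TPM at day 14. The part of these small signals in the results below was not tested. In bulk RNA, fewer cells with a transcript and less of it per cell cannot be told apart.

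Proteins bound for secretion or membranes enter the ER through the Sec61 translocon, lose their signal peptide to the signal peptidase and receive N-glycans from the OST. Inside, the Hsp70 chaperone BiP (Hspa5) and its J-domain partners, the lectins calnexin and calreticulin, and the protein disulfide isomerases fold them, while Ero1 oxidases pass electrons from the isomerases to oxygen. Proteins that do not fold are taken back to the cytosol through the Sel1l-Syvn1 complex and degraded. When unfolded proteins build up, the sensors Ern1 (IRE1), Atf6 and PERK start the unfolded protein response, which in most cells raises the genes of folding and of degradation. Exocrine cells of the pancreas, which secrete digestive enzymes, are known for a large ER.

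The best known promoter element of these genes is the ER stress response element (ERSE), in which NF-Y binds CCAAT and ATF6 or XBP1 binds CCACG after 9 bases of any kind. Promoter windows from RefSeq (250 bases before to 50 after the gene start, build GRCm38.p6) were matched to 38 of the 46 genes. The authors' build is not stated in those sources. ERSE letters, searched on both strands, lay in 10 of those 38 genes (26.3%), against 17 of 9711 tested genes with a window (0.175%) and 39 of 32851 windows of the whole table (0.119%). The shares of tested genes and windows, here and below, include the members, and 10 of the 17 genes are these 10. Since the element is known from genes of this kind, the contrast is a description and no test. ERSE letters were in 6 of the 9 matched chaperones, 2 of 9 disulfide enzymes, 0 of 8 translocon, signal peptidase and OST genes, 2 of 9 degradation genes and 0 of 3 stress sensors. The 11 sites lay 26 to 212 bases upstream of the gene start. Each is printed with 15 bases on either side, in the direction of the gene, to show which members carry the element. Capitals mark its fixed letters, which read CGTGG and ATTGG where the element lies on the opposite strand.
Hspa5 (chr2:34772010-34772058, plus strand): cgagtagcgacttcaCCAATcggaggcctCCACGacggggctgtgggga
Hsp90b1 (chr10:86705623-86705671, minus strand): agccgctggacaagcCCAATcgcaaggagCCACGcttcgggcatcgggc
Hsp90b1 (chr10:86705518-86705566, minus strand): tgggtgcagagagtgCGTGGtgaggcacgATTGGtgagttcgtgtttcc
Dnajc3 (chr14:118937812-118937860, plus strand): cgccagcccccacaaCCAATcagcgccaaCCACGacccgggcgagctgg
Calr (chr8:84847060-84847108, minus strand): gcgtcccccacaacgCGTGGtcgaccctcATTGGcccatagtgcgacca
Canx (chr11:50325785-50325833, minus strand): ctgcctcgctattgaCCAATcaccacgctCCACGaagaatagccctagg
Creld2 (chr15:88819505-88819553, plus strand): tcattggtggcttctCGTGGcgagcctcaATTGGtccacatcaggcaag
Pdia6 (chr12:17266476-17266524, plus strand): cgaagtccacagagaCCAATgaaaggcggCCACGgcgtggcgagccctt
Ero1lb (chr13:12565667-12565715, plus strand): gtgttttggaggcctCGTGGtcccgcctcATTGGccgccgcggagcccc
Syvn1 (chr19:6046517-6046565, plus strand): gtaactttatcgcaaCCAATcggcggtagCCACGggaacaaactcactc
Derl3 (chr10:75893227-75893275, plus strand): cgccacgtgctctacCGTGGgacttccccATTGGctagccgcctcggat

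A shorter form, ERSE-II (ATTGG, any 1 base, CCACG), which shares its CCACG with ERSE, was found in Dnajb11 and Herpud1, 5.26% of the matched members against 0.0824% of tested genes. Only the site of Herpud1 is printed, because that of Dnajb11 lies after the gene start. Herpud1 was called higher than day 0 at both times and Dnajb11 lower at both.
Herpud1 (chr8:94386362-94386402, plus strand): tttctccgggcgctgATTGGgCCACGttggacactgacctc

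The hypoxia core ACGTG was found in 19 of the 38 members and in 29.5% of tested genes, so it is common. Carriers called lower at day 2 were Hspa5, Dnajc3, Calr, Pdia5, Pdia6, Txndc5, Ssr1, Dad1 and Atf6b. Those called higher were Dnajb9, Ero1l, Herpud1, Derl3 and Os9, and the others were not called. A part of the core in these changes was not tested. The core is shown for Ero1l, the member with the largest change, where it stands on the opposite strand as CACGT.
Ero1l (chr14:45318616-45318650, minus strand): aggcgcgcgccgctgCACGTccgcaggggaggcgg
The core TGACGTG of the unfolded protein response element, which contains ACGTG, was in 2 members, Hspa5 and Txndc5 (5.26%, against 3.26% of tested genes). The core TGATG, any 1 base, AA, which ATF4 and its partners bind, was in Txndc5 and Herpud1 (5.26%, against 2.71%). A match of letters is a description of the sequence and shows no binding.

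Most of the folding and translocation genes were lower at day 2, while among degradation genes and stress sensors more were called higher than lower. At day 2, limma called 9 of the 46 genes higher than day 0 and 25 lower, where 27.1% of all tested genes were called higher and 31.9% lower. The median log2 fold change of the 46 was -0.47, against -0.015 for all tested genes. At day 14, 12 were called higher than day 0 and 16 lower, against 36.2% and 18.8% of tested genes, with a median of -0.049 against 0.22. The standard error of the log2 fold change of a member was 0.090 to 0.267, with a median of 0.124, and is printed beside the members described in full. Between day 2 and day 14, 24 were called higher at day 14 and 2 lower, against 27.4% and 3.79% of tested genes, with a median of 0.42 against 0.25. The day 2 and day 14 comparisons share the day 0 samples, and the day 14 comparison with day 2 shares samples with both. With scaling by median of ratios, which moved the median of all genes from 0.22 to 0.016 at day 14 against day 0 and from 0.25 to 0.0041 against day 2, the counts at day 14 against day 0 were 9 higher and 21 lower, where 27.2% and 28.8% of tested genes were called, and against day 2 they were 12 higher and 3 lower, where 13.1% and 11.1% were called. Quantile normalization gave 14 higher and 15 lower against day 0, where 22.4% and 26.5% of tested genes were called, and 13 higher and 4 lower against day 2, where 1470 and 1905 of the 12693 tested genes were called.

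**Figure D1:**
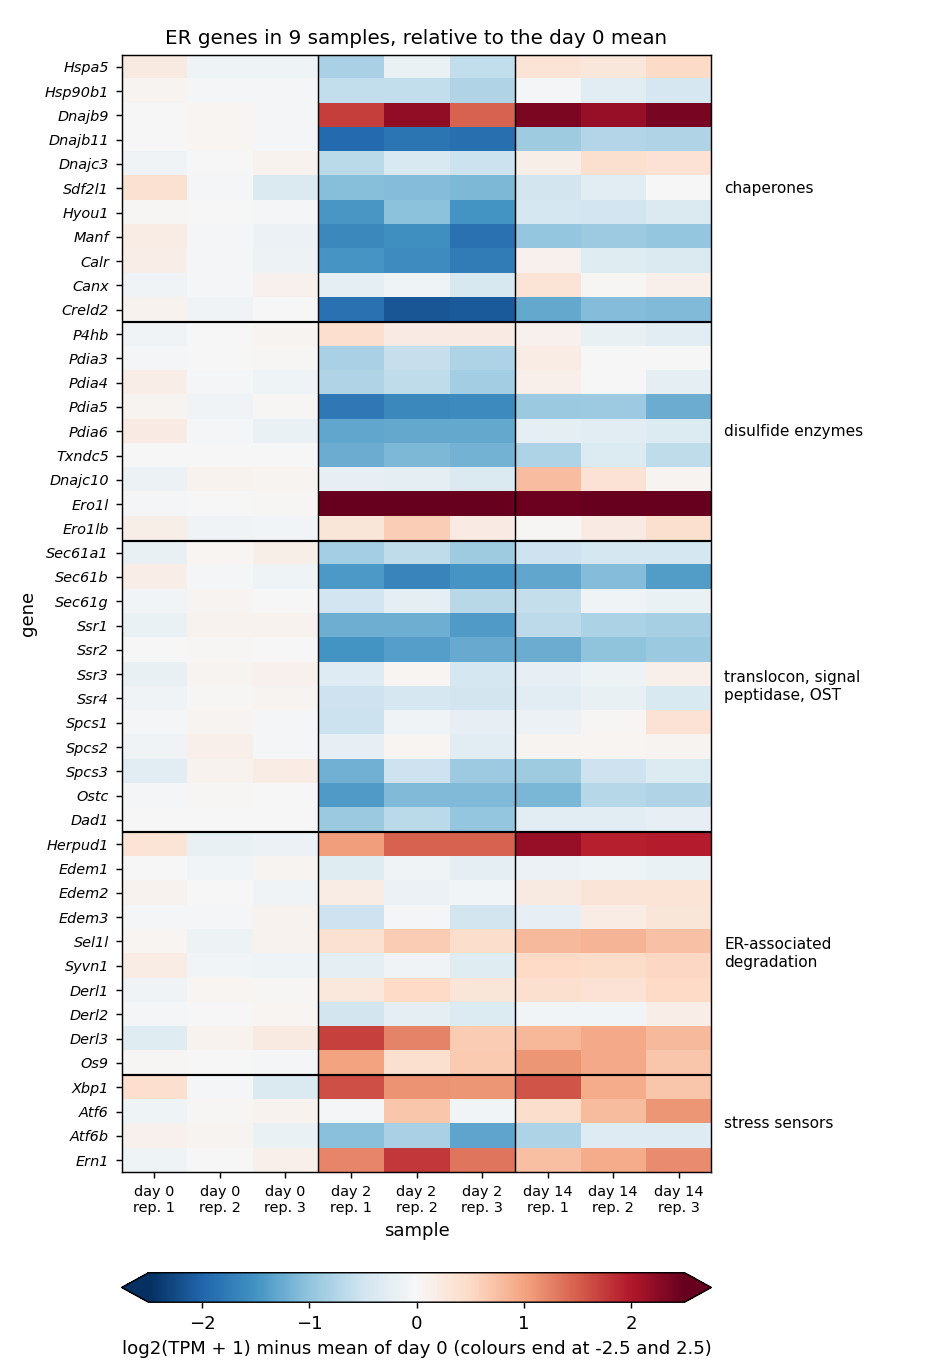
Values of the 46 ER genes (rows, grouped by role) in the 9 samples (columns), as log2(TPM + 1) minus the mean of day 0. Most chaperone, disulfide and translocon genes are blue at day 2 and paler at day 14, Dnajb9, Ero1l and Herpud1 are red at both times, and the samples of a day look alike.

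Among the chaperones, 9 of 11 were called lower at day 2, 1 was called higher and Canx was not called. By comparison, 31.9% of all tested genes were called lower and 27.1% higher at day 2. The median log2 fold change of the class was -1.09, which is 1.08 below that of all genes. At day 14 Dnajb11, Hyou1, Manf and Creld2 were called lower than day 0 and Dnajb9 higher, where 18.8% and 36.2% of tested genes were called. The class median was -0.24, against 0.22 for all tested genes. That day 14 median was 0.016 under quantile normalization and -0.46 with median-of-ratios scaling. The summed TPM of the 11 genes was 1684 ± 129, 858 ± 87.8 and 1591 ± 129.5 at days 0, 2 and 14 (SD, n = 3), so the day 2 sum was 0.509 times that of day 0 and the day 14 sum 0.945 times.

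Creld2, a secreted ER-resident protein induced by ER stress in other settings, had the largest fall of the class. It measured 75.7, 67.4 and 71.5 TPM at day 0, then 18.8, 15.4 and 15.8 TPM at day 2, and 29.03, 33.2 and 32.9 TPM at day 14. The 3 days did not overlap, with day 2 lowest and day 14 between. The log2 fold changes were -2.04 (limma, SE 0.11, adjusted p = 1.17e-06) at day 2 and -1.15 (limma, SE 0.11, adjusted p = 7.03e-05) at day 14. Calr encodes calreticulin, the soluble lectin that retains glycoproteins for folding. It measured 669, 586 and 548 TPM at day 0, then 216, 199.9 and 177 TPM at day 2, and 643, 482 and 465 TPM at day 14. All 3 day 2 samples lay far below the rest, while days 0 and 14 overlapped. Its log2 fold change was -1.60 (limma, SE 0.14, adjusted p = 1.89e-05) at day 2 and -0.19 (limma, SE 0.14, adjusted p = 0.281) at day 14. Leaving out day 14 replicate 1, the highest of its day, gave a lower call for Calr at day 14 (limma, adjusted p = 0.0495), and so did median-of-ratios scaling (log2 fold change -0.42, adjusted p = 0.033).

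Hspa5 encodes BiP, the Hsp70 chaperone of the ER that also holds the stress sensors inactive. It measured 386, 308 and 308 TPM at day 0, then 189, 297 and 216 TPM at day 2, and 422, 403 and 462 TPM at day 14. The days did not overlap, although the highest day 2 sample came close to the lowest of day 0. Against day 0, the log2 fold change was -0.53 (limma, SE 0.17, adjusted p = 0.0216) at day 2 and 0.37 (limma, SE 0.17, adjusted p = 0.0877) at day 14. The day 2 call was lost without day 0 replicate 1 (limma, adjusted p = 0.081), day 2 replicate 1 (0.0745) or day 2 replicate 3 (0.0669), and under quantile normalization (log2 fold change -0.045, adjusted p = 0.819), removal of the 20 most abundant rows (0.0811) or of Mir6236 (0.0516). At day 14 Hspa5 was called higher under quantile normalization (limma, adjusted p = 0.00987), in a fit of those 2 days alone (0.03) and without day 2 replicate 2 (0.0257).

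Hsp90b1 encodes GRP94, the Hsp90 of the ER. It measured 285, 266 and 269 TPM at day 0, then 179, 177 and 162 TPM at day 2, and 264, 228 and 205 TPM at day 14. All day 2 samples were below all others, and day 14 replicate 1 came just under the lowest day 0 sample. Set against day 0, it had a log2 fold change of -0.66 (limma, SE 0.11, adjusted p = 0.000621) at day 2 and -0.24 (limma, SE 0.11, adjusted p = 0.0827) at day 14. Under quantile normalization the day 2 call was lost (log2 fold change -0.15, adjusted p = 0.328). At day 14 a lower call appeared with median-of-ratios scaling (limma, adjusted p = 0.00502) and without day 14 replicate 1 (0.0232).

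Dnajb9 encodes ERdj4, a J-domain co-chaperone that hands misfolded clients to BiP and to degradation, and it was the chaperone that rose. It measured 5.84, 5.98 and 5.52 TPM at day 0, then 21.4, 30.6 and 17.8 TPM at day 2, and 33.8, 29.7 and 33.9 TPM at day 14. Every sample of days 2 and 14 was far above the day 0 samples, and the highest day 2 sample lay within the day 14 range. It had a log2 fold change of 1.80 (limma, SE 0.18, adjusted p = 3.14e-05) at day 2 and 2.30 (limma, SE 0.18, adjusted p = 2.65e-05) at day 14. On the log2(TPM + 1) scale a change of so low a gene is understated: the ratio of mean TPM was 4.02 at day 2 and 5.61 at day 14. Dnajb11 and Dnajc3, which encode further J-domain partners of BiP, were lower at day 2. Mean levels at days 0, 2 and 14 were 79.3, 20.7 and 45.6 TPM for Dnajb11, with log2 fold changes of -1.89 and -0.79, both called. For Dnajc3 (p58IPK) they were 13.5, 9.07 and 16.9 TPM, with log2 fold changes of -0.53, called, and 0.30, not called. The day 14 value of Dnajc3 was called higher without the 20 most abundant rows (limma, adjusted p = 0.0289), without Mir6236 (0.0337) and without day 2 replicate 2 (0.0496) or day 14 replicate 1 (0.042). The same call appeared with the replicate number as block (limma, adjusted p = 0.04775).

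Of the remaining chaperones, Hyou1, the nucleotide exchange factor of BiP, had log2 fold changes of -1.33 and -0.43 at days 2 and 14. Manf, a BiP cofactor secreted under stress, had log2 fold changes of -1.66 and -0.95, and Sdf2l1, a partner of Dnajb11, -1.09 and -0.24, the second not called. The day 14 call of Hyou1 was lost in 5 of the 9 fits without 1 sample (limma, adjusted p from 0.052 to 0.0697, without any day 0 sample or day 14 replicate 1 or 2). Canx encodes calnexin, the membrane-bound relative of calreticulin. Its mean levels were 150.1, 127 and 169 TPM and its log2 fold changes -0.25 (limma, SE 0.12, adjusted p = 0.0949) and 0.17, the second called higher under quantile normalization (0.33, adjusted p = 0.026).

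**Figure D2:**
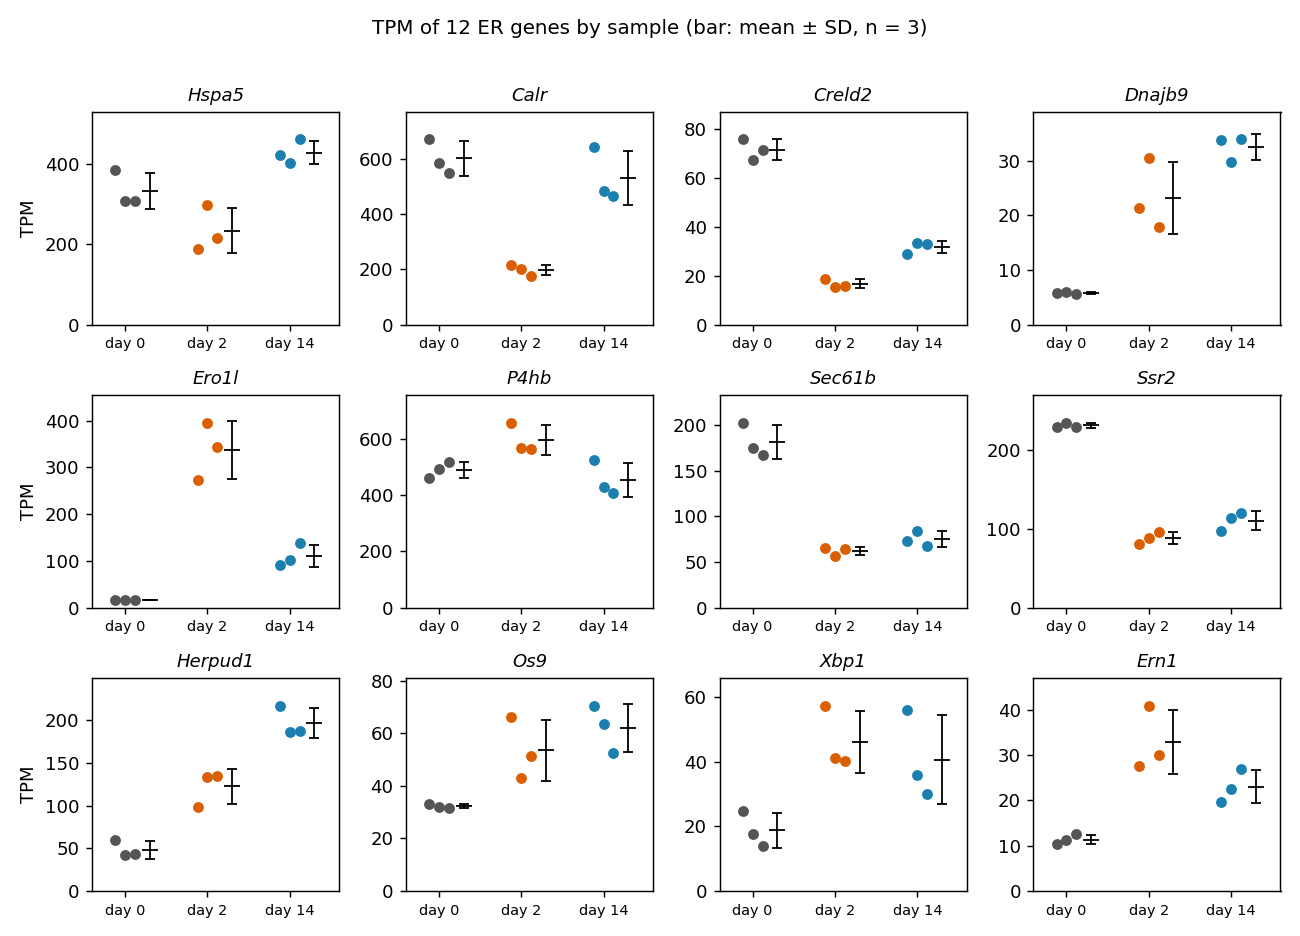
TPM of 12 ER genes in each of the 9 samples, by day, with the mean and SD of the 3 samples beside the points. Calr and Creld2 are lowest at day 2, Ero1l is highest at day 2, Herpud1 is highest at day 14, and Sec61b and Ssr2 stay below every day 0 sample at both times.

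Among the disulfide enzymes, 5 of 9 were called lower at day 2 (Pdia3, Pdia4, Pdia5, Pdia6 and Txndc5) and Ero1l was called higher. Over all tested genes, 31.9% were called lower and 27.1% higher at day 2, and 18.8% and 36.2% at day 14. The class median was -0.72 at day 2 and -0.030 at day 14, when Pdia5, Pdia6 and Txndc5 were called lower. The day 2 median was -0.23 under quantile normalization. The day 14 median was -0.25 with median-of-ratios scaling, 0.052 under quantile normalization, 0.012 without the 20 most abundant rows and 0.0033 without Mir6236, so no direction is given for it. The summed TPM of the class was 1246 ± 8.72, 1343 ± 50.8 and 1272 ± 99.6 at days 0, 2 and 14 (SD, n = 3), or 1.08 and 1.02 times day 0. Every day 2 sum was above every day 0 sum. The sums were not computed under other scalings. This class sum holds opposite parts. Without Ero1l and P4hb the other 7 enzymes summed to 740.1 ± 20.9, 409 ± 23.9 and 707 ± 59.97 TPM. Under median-of-ratios scaling, removal of the 20 most abundant rows or removal of Mir6236, 3 of the 9 were called higher at day 2 rather than 1, and under quantile normalization 2.

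Ero1l encodes the oxidase ERO1-alpha, which reoxidizes P4hb and is known as a gene raised in hypoxia. It measured 15.6, 16.2 and 16.6 TPM at day 0, then 273, 396 and 343 TPM at day 2, and 92.3, 102 and 138 TPM at day 14. The days did not overlap, with day 2 highest and day 14 between. The mean was 20.9 times that of day 0 at day 2 and 6.87 times at day 14. This was a log2 fold change of 4.29 (limma, SE 0.17, adjusted p = 3.05e-07) at day 2 and 2.68 (limma, SE 0.17, adjusted p = 1.4e-05) at day 14, and day 14 was below day 2 with a log2 difference of -1.60 (limma, SE 0.17, adjusted p = 0.000249). Among the 46 genes its mean level ranked 40 at day 0, 2 at day 2 and 14 at day 14. Its paralog Ero1lb, the oxidase of insulin-making and other secretory cells, stayed low. It measured 2.098, 1.62 and 1.65 TPM at day 0, then 2.44, 3.29 and 2.21 TPM at day 2, and 1.83, 2.21 and 2.68 TPM at day 14. The day 2 samples lay just above the highest day 0 sample and the day 14 samples overlapped day 0. Neither comparison was called, with log2 fold changes of 0.38 (limma, SE 0.17, adjusted p = 0.0769) and 0.21 (limma, SE 0.17, adjusted p = 0.302). At day 2 Ero1lb was called higher with median-of-ratios scaling (limma, adjusted p = 0.0403), without the 20 most abundant rows (0.0214) and without Mir6236 (0.0296), and at day 14 it was called lower under quantile normalization (log2 fold change -0.43, adjusted p = 0.0457).

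P4hb, the founding protein disulfide isomerase and the direct partner of Ero1l, was among the 2 most abundant of the 46 genes on every day. It measured 462, 492 and 517 TPM at day 0, then 658, 567 and 565 TPM at day 2, and 525, 428 and 409.5 TPM at day 14. The day 2 samples were above all day 0 samples, and days 0 and 14 overlapped. Neither comparison with day 0 was called, with log2 fold changes of 0.28 (limma, SE 0.12, adjusted p = 0.0608) and -0.12 (limma, SE 0.12, adjusted p = 0.408). The day 2 value was called higher under every other scaling run (limma, adjusted p from 0.00121 to 0.0339), as well as in a fit of those 2 days alone (0.0422) and without day 14 replicate 1 (0.0306). Whether it was called thus depended on the setting. At day 14 median-of-ratios scaling gave a lower call for P4hb (log2 fold change -0.34, limma, adjusted p = 0.0304). The ratio of Ero1l to P4hb TPM was 0.0330 ± 0.000861, 0.573 ± 0.145 and 0.251 ± 0.0816 at days 0, 2 and 14 (SD, n = 3), a quantity that a common factor per sample, such as median-of-ratios scaling or the removal of rows, does not change. Quantile normalization is no such factor, and the ratio was not computed under it.

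Pdia5, an isomerase that has been linked to ATF6 activation, had the largest fall of the class. It measured 22.5, 20.3 and 21.9 TPM at day 0, then 5.54, 6.34 and 6.495 TPM at day 2, and 10.9, 11.1 and 8.499 TPM at day 14. The days did not overlap. Against day 0, the log2 fold change was -1.67 (limma, SE 0.13, adjusted p = 7.94e-06) at day 2 and -1.03 (limma, SE 0.13, adjusted p = 0.000238) at day 14. Pdia6, which binds Ern1 and damps its signal, had log2 fold changes of -1.29 and -0.29, and Txndc5, a thioredoxin-domain isomerase, -1.18 and -0.58. For Pdia3, the isomerase that works with calnexin and calreticulin, the day 2 value was -0.72 and the day 14 value 0.062, and for Pdia4 -0.75 and -0.03. Neither of these day 14 values was called. Under quantile normalization Pdia3 lost its day 2 call (log2 fold change -0.23, limma, adjusted p = 0.0515) and was called higher at day 14 (0.31, adjusted p = 0.0186). The day 14 call of Pdia6 was lost in 5 of 9 fits without 1 sample (limma, adjusted p from 0.0608 to 0.146, without day 0 replicate 1 or 2 or any day 14 sample). It was also lost under quantile normalization (log2 fold change -0.12, adjusted p = 0.404), without the 20 most abundant rows (0.0826), without Mir6236 (0.0706) and in a fit of those 2 days alone (0.0553). Dnajc10, the reductase ERdj5 that unlinks disulfides before degradation, had mean levels of 71.4, 59.2 and 96.4 TPM and was called at neither time against day 0. At day 14 Dnajc10 was called higher under quantile normalization (limma, adjusted p = 0.0492), without the 20 most abundant rows (0.0444) and without day 14 replicate 3 (0.0122).

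**Figure D3:**
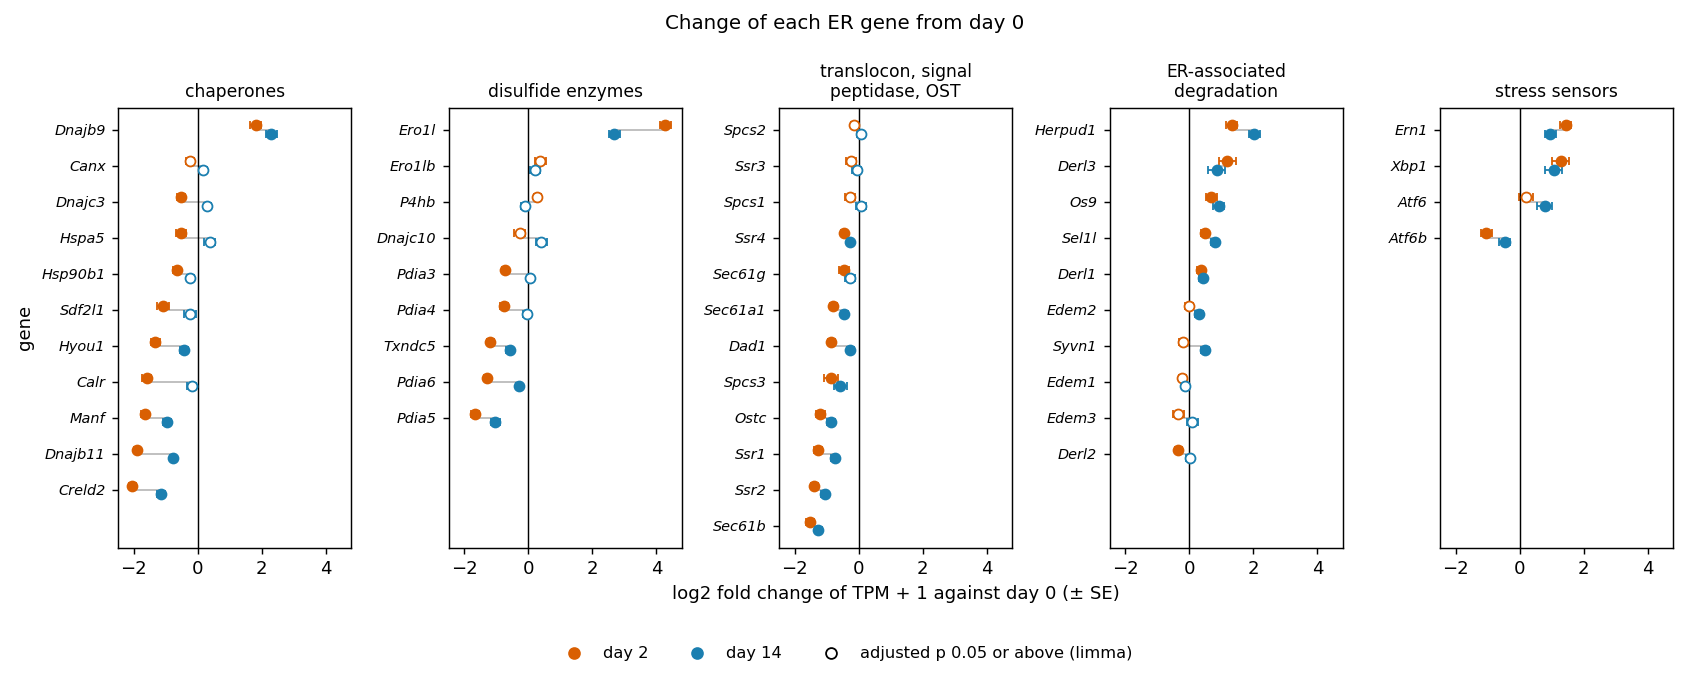
Log2 fold change of TPM + 1 against day 0 for each of the 46 genes (horizontal axis, ± SE) in 5 panels by role, orange for day 2 and blue for day 14, with open symbols where limma's adjusted p was 0.05 or above. In the first 3 panels most orange symbols lie left of 0 with the blue symbol of the same gene nearer to it, and in the degradation panel most blue symbols lie right of 0.

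In the class of translocon, signal peptidase and OST genes no member was called higher against day 0 at either time, with limma's adjusted p or at an unadjusted p under 0.05 (0 of 12 both ways). At day 2, 9 of 12 were called lower with a median of -0.83, and at day 14, 8 of 12 with a median of -0.37. The shares of all tested genes called at days 2 and 14 were 31.9% and 18.8% lower and 27.1% and 36.2% higher. Relative to all genes the class medians were 0.81 and 0.59 lower, and they were below 0 under all 4 other scalings run. Quantile normalization gave -0.35 at day 2 and -0.21 at day 14, and median-of-ratios scaling -0.60 at day 14. The summed TPM was 1802 ± 66.2, 1069 ± 101 and 1319.9 ± 88.1 at days 0, 2 and 14 (SD, n = 3), or 0.593 and 0.733 times day 0. Fits without 1 sample gave 8 to 10 lower calls at day 2 and 5 to 8 at day 14, with 5 without day 0 replicate 2 or 3 or day 14 replicate 1.

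Sec61b encodes the beta subunit of the translocation channel. It measured 202, 175 and 167 TPM at day 0, then 65.7, 57.01 and 64.02 TPM at day 2, and 73.3, 84.3 and 67.9 TPM at day 14. All samples of days 2 and 14 were below all day 0 samples, and every day 14 value was above every day 2 value. Set against day 0, it had a log2 fold change of -1.52 (limma, SE 0.12, adjusted p = 7.97e-06) at day 2 and -1.26 (limma, SE 0.12, adjusted p = 5.85e-05) at day 14. The other channel subunits had values nearer to 0. Sec61a1, which forms the pore, had log2 fold changes of -0.80 and -0.46, both called, and Sec61g had log2 fold changes of -0.47, called, and -0.29, not called. The day 2 call of Sec61g was lost in 5 of 9 fits without 1 sample (limma, adjusted p from 0.0542 to 0.101, without any day 0 sample or day 2 replicate 1 or 3), under quantile normalization (log2 fold change -0.076, adjusted p = 0.671) and without the 20 most abundant rows (-0.30, 0.0813). With median-of-ratios scaling Sec61g was called lower at day 14 too (-0.51, adjusted p = 0.0117).

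The 4 Ssr genes encode the translocon-associated complex TRAP, which helps some signal sequences open the channel. Ssr2 measured 229.9, 235 and 230.02 TPM at day 0, then 81.1, 88.04 and 95.8 TPM at day 2, and 97.02, 115 and 121 TPM at day 14. Day 0 stood apart, and the 2 later days did not overlap. Log2 fold changes at days 2 and 14 were -1.38 and -1.06 for Ssr2 and -1.28 and -0.76 for Ssr1, all called. Ssr4 had log2 fold changes of -0.46 and -0.28, called, and Ssr3 -0.24 and -0.069, not called, although Ssr3 was called lower at day 2 without day 2 replicate 2 (limma, adjusted p = 0.0356). The day 2 value of Ssr4 turned to 0.0068 under quantile normalization (limma, adjusted p = 0.959), and its day 14 call was lost in 4 of 9 fits without 1 sample (adjusted p from 0.0515 to 0.104, without day 0 replicate 2 or 3 or day 14 replicate 1 or 3) and under quantile normalization (-0.060, adjusted p = 0.637).

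Of the 3 signal peptidase subunits, Spcs3 had log2 fold changes of -0.87 and -0.58, called at both times, whereas Spcs1 (-0.28 and 0.081) and Spcs2 (-0.14 and 0.057) were called at neither. Spcs3 was lost at day 14 in 5 of 9 fits without 1 sample (limma, adjusted p from 0.055 to 0.126, without day 0 replicate 2 or 3, day 2 replicate 3 or day 14 replicate 1 or 2) and with no filter (0.06). Of the 2 OST subunits listed, Ostc had log2 fold changes of -1.20 and -0.87, both called. Dad1, a small OST subunit named for its defense against cell death, measured 254, 253 and 250.4 TPM at day 0, then 133, 159 and 128 TPM at day 2, and 206, 207 and 218 TPM at day 14. The 3 days did not overlap, and the day 0 samples were nearly equal. Its log2 fold change was -0.85 (limma, SE 0.10, adjusted p = 7.84e-05) at day 2 and -0.26 (limma, SE 0.10, adjusted p = 0.045) at day 14. The day 14 call was lost in 7 of 9 fits without 1 sample (limma, adjusted p from 0.0502 to 0.117, all but those without day 2 replicate 2 or 3), under quantile normalization (log2 fold change -0.034, adjusted p = 0.723) and with a filter at a mean of 5 TPM (0.0571). It was also lost with the replicate number as block (limma, adjusted p = 0.0591). Against day 2, Dad1 was higher at day 14 with a log2 difference of 0.59 (limma, SE 0.10, adjusted p = 0.00225), the largest of the class.

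**Figure D4:**
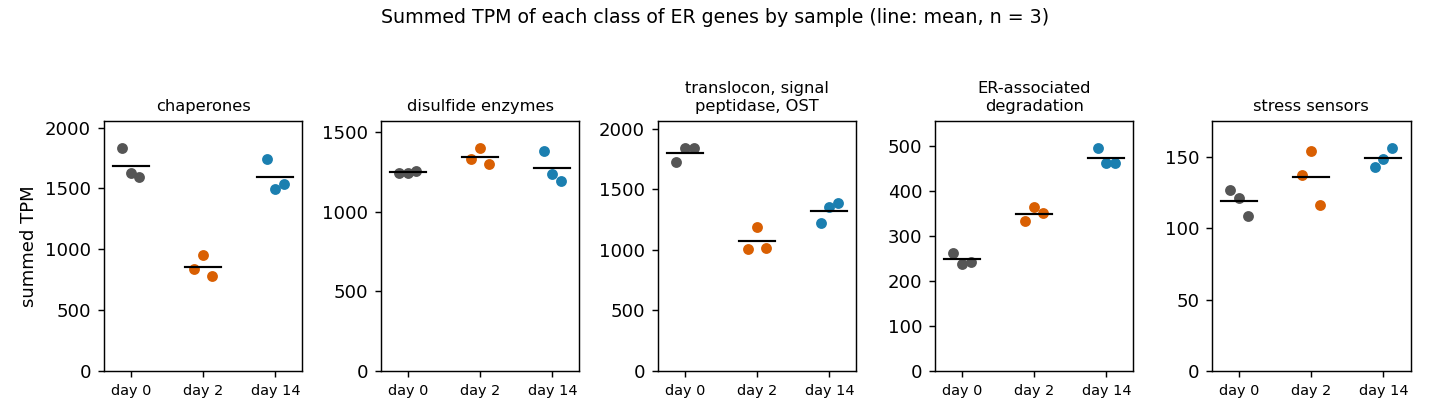
Summed TPM of the genes of each class (vertical axis, starting at 0) in each sample, with a line at the mean of the 3 samples of a day. The chaperone sum drops at day 2 and at day 14 overlaps that of day 0, and the translocon, signal peptidase and OST sum stays below day 0. The disulfide sum changes little, with the day 2 samples above those of day 0. The degradation sum is lowest at day 0 and highest at day 14.

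The degradation genes were called higher more often than lower. At day 2, 5 of 10 were called higher and 1 lower, where 27.1% of tested genes were called higher and 31.9% lower. At day 14, 7 were called higher and 0 lower, where the shares of tested genes were 36.2% and 18.8%. The class medians were 0.17 and 0.45, which is 0.19 and 0.23 above those of all genes. The day 2 median was -0.0093 over the 9 genes with a mean of at least 5 TPM, 0.36 under quantile normalization, 0.34 without the 20 most abundant rows and 0.28 without Mir6236. At an unadjusted p under 0.05, limma also had 0 lower at day 14. The summed TPM was 248 ± 13.1 (SD, n = 3), 349.6 ± 15.4 and 473 ± 19.3 at days 0, 2 and 14, 1.41 and 1.91 times day 0, and the 3 days did not overlap. Herpud1 alone made up 48.2, 123 and 197 TPM of these mean sums. Edem1, Edem3 and Derl2 were called higher at neither time. Median-of-ratios scaling gave 4 higher calls at day 14 and quantile normalization 5, each with 1 lower call (Edem1), and medians of 0.23 and 0.30. No test of the difference between classes was made.

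Herpud1, a membrane protein that assembles the degradation complex around Syvn1, had the largest rise. It measured 60.3, 41.7 and 42.7 TPM at day 0, then 98.7, 134 and 135 TPM at day 2, and 217, 187 and 188 TPM at day 14. The days did not overlap, and within day 0 replicate 1 was well above the others. It had a log2 fold change of 1.33 (limma, SE 0.17, adjusted p = 0.000169) at day 2 and 2.03 (limma, SE 0.17, adjusted p = 3.95e-05) at day 14. Its mean was 2.54 times that of day 0 at day 2 and 4.09 times at day 14, and by level it ranked 8 of the 46 genes at day 14. Syvn1 encodes HRD1, the ubiquitin ligase at the core of that complex. It measured 34.7, 28.97 and 28.1 TPM at day 0, then 25.9, 28.6 and 24.5 TPM at day 2, and 43.7, 42.3 and 43.8 TPM at day 14. The day 14 samples were above all others, and days 0 and 2 overlapped. This was a log2 fold change of -0.21 (limma, SE 0.11, adjusted p = 0.136) at day 2 and 0.49 (limma, SE 0.11, adjusted p = 0.00506) at day 14. With median-of-ratios scaling the day 14 value of Syvn1 missed the threshold (log2 fold change 0.27, limma, adjusted p = 0.0507).

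Sel1l, the adaptor of Syvn1, had mean levels of 17.7, 25.3 and 31.5 TPM and log2 fold changes of 0.49 and 0.80, both called. Os9, a lectin that delivers glycoproteins to Sel1l, had 32.2, 53.4 and 62.1 TPM, with log2 fold changes of 0.69 and 0.92, both called. The 3 derlins, membrane proteins of the retrotranslocation step, went different ways. Derl1 had log2 fold changes of 0.35 and 0.42, and Derl3, with 0.738, 3.09 and 2.12 TPM, had log2 fold changes of 1.19 and 0.86, all called. Derl2 measured 20.2, 21.2 and 21.8 TPM at day 0, then 15.001, 17.6 and 16.4 TPM at day 2, and 20.1, 20.1 and 23.7 TPM at day 14. Its day 2 samples were below all others, and days 0 and 14 overlapped. The log2 fold change of Derl2 was -0.35 (limma, SE 0.11, adjusted p = 0.0224) at day 2 and 0.013 (limma, SE 0.11, adjusted p = 0.931) at day 14.

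Several of these calls rested on 1 sample or on the scaling. The day 2 call of Derl2 was lost in 3 of 9 fits without 1 sample (limma, adjusted p from 0.0706 to 0.0746, without day 0 replicate 2 or 3 or day 2 replicate 1), under quantile normalization (log2 fold change -0.25, adjusted p = 0.072), without the 20 most abundant rows (-0.19, 0.138) and without Mir6236 (-0.24, 0.0774). The call was lost for Derl1 at day 2 without day 0 replicate 1 (limma, adjusted p = 0.0549) and at day 14 with median-of-ratios scaling (0.073), and for Derl3 at day 14 without day 0 replicate 1 (0.0724), without day 14 replicate 2 (0.0564) and under quantile normalization (log2 fold change 0.20, adjusted p = 0.567). The log2 fold changes of Derl3 were 1.90 and 1.48 with a pseudocount of 0.1 and 0.48 and 0.31 with one of 5. The Edem genes encode mannosidase-like lectins that mark glycoproteins for removal. Edem2 had log2 fold changes of -0.0093 and 0.30, the second called at an adjusted p of 0.0499 (limma) and lost in 7 of 9 fits without 1 sample (0.053 to 0.153, all but those without day 2 replicate 1 or 2). The Edem2 call was also lost with median-of-ratios scaling (log2 fold change 0.083, limma, adjusted p = 0.566), under quantile normalization (0.14, 0.346) and with no filter (0.0505). The replicate number as block lost it too (limma, adjusted p = 0.0642). Edem1 (-0.21 and -0.14) and Edem3 (-0.34 and 0.10) were called at neither time. Both were called lower at day 2 without day 2 replicate 2 (limma, adjusted p = 0.0482 and 0.0299), and Edem1 at day 14 with median-of-ratios scaling (log2 fold change -0.36, adjusted p = 0.00898) and quantile normalization (-0.33, 0.0169).

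Of the 4 stress sensors and transcription factors, Xbp1 and Ern1 were called higher and Atf6b lower at both times, and Atf6 was called higher at day 14. Among all tested genes, 27.1% were called higher and 31.9% lower at day 2, and 36.2% and 18.8% at day 14. Ern1 encodes IRE1, the sensor kinase whose ribonuclease splices Xbp1 mRNA. It measured 10.4, 11.2 and 12.5 TPM at day 0, then 27.6, 40.9 and 30.1 TPM at day 2, and 19.7, 22.6 and 26.9 TPM at day 14. The samples of days 2 and 14 were all above the day 0 samples, and days 2 and 14 did not overlap. Against day 0, the log2 fold change was 1.44 (limma, SE 0.17, adjusted p = 9.7e-05) at day 2 and 0.95 (limma, SE 0.17, adjusted p = 0.00147) at day 14. Xbp1 encodes the transcription factor made from the spliced mRNA. It measured 24.7, 17.5 and 13.9 TPM at day 0, then 57.4, 41.1 and 40.3 TPM at day 2, and 56.2, 35.8 and 29.998 TPM at day 14. Replicate 1 was the highest sample on each day, and every sample of days 2 and 14 was above all day 0 samples. Set against day 0, it had a log2 fold change of 1.28 (limma, SE 0.27, adjusted p = 0.00278) at day 2 and 1.07 (limma, SE 0.27, adjusted p = 0.00822) at day 14. The table holds 1 value per gene, so spliced and unspliced Xbp1 cannot be told apart.

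Atf6 encodes the sensor that is cut in the Golgi to release a transcription factor. Its mean levels on the 3 sampling days were 20.5 ± 1.53, 24.3 ± 8.11 and 36.4 ± 8.63 TPM (SD, n = 3 per day), and its log2 fold changes 0.19 (limma, SE 0.23, adjusted p = 0.499) and 0.77 (limma, SE 0.23, adjusted p = 0.018). Atf6b, its paralog with weaker activity, measured 73.2, 71.2 and 60.2 TPM at day 0, then 32.6, 38.5 and 26.8 TPM at day 2, and 39.5, 53.9 and 54.2 TPM at day 14. The day 0 samples were all above the others. It had a log2 fold change of -1.05 (limma, SE 0.17, adjusted p = 0.000629) at day 2 and -0.47 (limma, SE 0.17, adjusted p = 0.0392) at day 14. At day 14 the call of Atf6 was lost without day 0 replicate 1 (limma, adjusted p = 0.0571) or day 14 replicate 3 (0.0609), and that of Atf6b without day 0 replicate 1 or 2 or day 14 replicate 1 (0.11 to 0.127) and with no filter (0.0556).

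Day 14 was then compared with day 2 directly, a comparison that is also the test of unequal change from day 0 at the 2 times. In it, 27.4% of all tested genes were called higher and 3.79% lower. Of the 11 chaperones, 10 were called higher at day 14 and Dnajb9 was not called. The value of Dnajb9 was 0.50 (limma, SE 0.18, adjusted p = 0.0591), and without day 2 replicate 2, the highest of its day, it was called (adjusted p = 0.00502). The chaperone median was 0.86, which is 0.61 above that of all genes. The largest rise was that of Calr, with 1.41 (limma, SE 0.14, adjusted p = 0.000173), and Hspa5 rose by 0.90 and Creld2 by 0.89. Of the 9 disulfide enzymes 6 were called higher, with a class median of 0.64, and Ero1l and P4hb were called lower. The P4hb value was -0.40 (limma, SE 0.12, adjusted p = 0.0287), lost in 4 of 9 fits without 1 sample (adjusted p from 0.051 to 0.0926, without day 0 replicate 2, day 2 replicate 1 or day 14 replicate 2 or 3).

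In the other classes the medians between the later days were close to that of all genes. The share of all tested genes called higher at day 14 was 27.4%, near the shares called in the translocon and degradation classes. Of the 12 translocon, signal peptidase and OST genes 4 were called higher at day 14 (Sec61a1, Ssr1, Ssr2 and Dad1), with a median of 0.31, which is 0.058 above that of all genes. Of the 10 degradation genes Herpud1 (0.69), Syvn1 (0.70) and Derl2 (0.36) were called higher, with a median of 0.31, which is 0.062 above. Of the 4 sensors Atf6b was called higher (0.58), and the class median of 0.18 became -0.081 with median-of-ratios scaling and -0.090 under quantile normalization. Every day 14 sample of Ern1 was below every day 2 sample, with a log2 difference of -0.49 that was not called (limma, SE 0.17, adjusted p = 0.0559). It was called lower in 8 of the 19 alternatives, with median-of-ratios scaling (-0.75, limma, adjusted p = 0.00823), quantile normalization (-0.81, 0.00733), the 20 top rows (-0.61, 0.0208) or Mir6236 (-0.57, 0.0279) removed, a filter at a mean of 5 TPM (0.0488), the replicate number as block (0.0426), and without day 2 replicate 1 (0.0419) or day 14 replicate 3 (0.0452). The Atf6b call was lost with median-of-ratios scaling (0.31, limma, adjusted p = 0.164), quantile normalization (0.32, 0.18), without the 20 most abundant rows (0.0511), in a fit of those 2 days alone (0.0694) and in 4 of 9 fits without 1 sample (0.0622 to 0.0977, without day 2 replicate 1 or 3 or day 14 replicate 2 or 3). Atf6, with a value of 0.58, was called higher without day 2 replicate 2 (limma, adjusted p = 0.0116) or day 14 replicate 1 (0.0421). With median-of-ratios scaling 7 chaperones, 3 disulfide enzymes, 1 translocon gene and 1 degradation gene were called higher at day 14 than at day 2. Both median-of-ratios scaling and quantile normalization lost the calls of Hsp90b1, Canx, Pdia5, Txndc5, Dnajc10, Sec61a1, Ssr1, Ssr2, Herpud1, Derl2 and Atf6b, and the first also that of Sdf2l1. The median with these scalings was 0.40 and 0.35 for the disulfide enzymes, 0.040 and 0.028 for the translocon class and 0.049 and 0.027 for degradation. Fits without 1 sample gave 8 to 11, 5 to 6, 2 to 4 and 2 to 5 higher calls. The calls of Sec61a1 (all but without day 0 replicate 1 or day 2 replicate 2), Ssr2 (all but without day 2 replicate 3 or day 14 replicate 1) and Derl2 (all but without day 2 replicate 2 or day 14 replicate 1) were each lost in 7 of 9 such fits. That of Canx was lost in 4, without day 2 replicate 1 or 3 or day 14 replicate 1 or 3, and those of Hsp90b1 and Dnajc10 without day 2 replicate 3.

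The order of levels within the machinery changed as well. At day 0 the most abundant members were Calr (601 ± 62.1 TPM), P4hb (490.1 ± 27.5), Hspa5 (334 ± 45.1) and Pdia3 (299 ± 5.76). Hspa5 and Pdia3 lay within their spread of each other. At day 2 the order was P4hb (597 ± 53.1 TPM), Ero1l (337 ± 61.8), Hspa5 (234 ± 56.5) and Calr (197 ± 19.6), the last 2 within their spread. At day 14 Calr, P4hb and Hspa5 again led, with 530.03 ± 98.3, 454 ± 61.8 and 429 ± 29.7 TPM, each within the spread of its neighbour. Together the 46 genes took 0.504% to 0.519% of all TPM at day 0, 0.357% to 0.406% at day 2 and 0.470% to 0.498% at day 14.

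Another 96 genes of the same pathways were counted in the same fit, of which 94 were tested. Gpx7 did not pass the filter and Hm13 was not analysed here. At day 2, 21 were called higher and 40 lower, with a median of -0.17, where 27.1% and 31.9% of all tested genes were called. At day 14 the counts were 31 and 21 with a median of 0.093, where 36.2% and 18.8% were called. Between the later days they were 38 and 1 with a median of 0.34, where 27.4% and 3.79% were called and the median of all genes was 0.25. These shares also apply to the counts of each list below. Quantile normalization gave 3 lower calls at day 2 in each of the lists of targeting, redox enzymes and retrotranslocation and 4 among the co-chaperones, where the fit as reported gave 6, 6, 6 and 7. Median-of-ratios scaling gave 14 lower calls at day 14 in the list of N-glycan transfer, where the fit as reported gave 9. The list of N-glycan transfer and glycoprotein folding had 14 of 17 genes lower at day 2 and 9 at day 14, with Uggt2 the only gene higher at either time. Mogs, the glucosidase that trims the first sugar of the N-glycan, fell most, with mean levels of 42.8, 13.5 and 25.6 TPM at days 0, 2 and 14 and log2 fold changes of -1.60 and -0.73. Uggt2, a glucosyltransferase that re-marks misfolded glycoproteins, was low, with 1.08, 1.85 and 1.93 TPM and log2 fold changes of 0.44 and 0.49. Under quantile normalization its values were 0.18 at day 2 (limma, adjusted p = 0.333) and -0.16 at day 14 (0.415), with median-of-ratios scaling the day 14 call was lost (0.0586), and its calls were lost in 4 of 9 fits without 1 sample at each time (0.0597 to 0.103 at day 2, without any day 0 sample or day 2 replicate 2, and 0.0567 to 0.0769 at day 14, without day 0 replicate 1 or 2 or day 14 replicate 2 or 3).

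In the list of targeting and translocation, 2 of 14 were higher and 6 lower at day 2, and 3 and 4 at day 14. Sec62 and Sec63, translocon partners of which Sec63 recruits BiP, were the 2 that rose at day 2. Sec62 had mean levels of 34.7, 48.1 and 69.2 TPM, with log2 fold changes of 0.46 and 0.98, and Sec63 had 22.2, 31.7 and 35.4 TPM, with log2 fold changes of 0.50 and 0.66. The day 2 call of Sec63 was lost without day 0 replicate 1 (limma, adjusted p = 0.0547). Sec11c, a catalytic subunit of the signal peptidase, had 90.5, 33.9 and 61.1 TPM, with log2 fold changes of -1.40 and -0.56, and Srprb, a subunit of the receptor for the signal recognition particle, had 50.8, 20.4 and 31.6 TPM, with log2 fold changes of -1.29 and -0.67.

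Of 12 further redox enzymes tested, 1 was higher and 6 lower at day 2, and 4 and 0 at day 14 (1 lower, Erp29, at limma's unadjusted p under 0.05). Tmx4, a membrane-bound thioredoxin-like protein, had 5.18, 9.34 and 11.7 TPM, with log2 fold changes of 0.74 and 1.04, and Gpx8, a peroxidase of the ER, had 10.98, 4.38 and 9.79 TPM, with log2 fold changes of -1.18, called, and -0.16, not called. Of 15 co-chaperones and prolyl isomerases 4 were higher and 7 lower at day 2, and 7 and 6 at day 14. Sil1, an exchange factor of BiP, had 21.2, 41.1 and 39.6 TPM, with log2 fold changes of 0.92 and 0.86. The prolyl isomerase Fkbp14 had 2.83, 6.11 and 11.3 TPM, with log2 fold changes of 0.89 and 1.69, while its relative Fkbp11 had 97.01, 19.04 and 24.7 TPM, with log2 fold changes of -2.32 and -1.95, all called.

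Of 21 genes of retrotranslocation, ubiquitination and extraction, 5 were higher and 6 lower at day 2, and 6 and 2 at day 14. Erlec1, a lectin of the same kind as Os9, had 8.61, 18.6 and 25.03 TPM, with log2 fold changes of 1.03 and 1.43. Vcp, the ATPase that pulls substrates out of the membrane, had 201, 92.05 and 167 TPM, with log2 fold changes of -1.12 and -0.27, and the ubiquitin-conjugating enzyme Ube2j2 had 39.2, 28.8 and 30.9 TPM, with log2 fold changes of -0.44 and -0.33. The day 14 calls of Vcp and Ube2j2 were each lost in 6 of 9 fits without 1 sample (limma, adjusted p from 0.0547 to 0.135 for Vcp, without any day 0 sample, day 2 replicate 1 or day 14 replicate 1 or 2, and from 0.066 to 0.152 for Ube2j2, without any day 0 or day 14 sample), and the day 2 call of Ube2j2 without day 0 replicate 2 (0.0585) and under quantile normalization (log2 fold change -0.22, adjusted p = 0.0713). At day 14 Vcp was also lost under quantile normalization (-0.053, limma, adjusted p = 0.607), without the 20 most abundant rows (0.0556) or Mir6236 (0.0525), with a pseudocount of 0.1 (0.051) and with a filter at a mean of 5 TPM (0.0616), and Ube2j2 with a pseudocount of 0.1 (0.0503) and with no filter (0.056). The replicate number as block lost both day 14 calls (limma, adjusted p = 0.0695 for Vcp and 0.0665 for Ube2j2).

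In the list of the PERK branch and other stress transducers, 8 of 15 were higher and 1 lower at day 2, and 10 and 0 at day 14 (also 0 lower at limma's unadjusted p under 0.05). Trib3, a pseudokinase that ATF4 and CHOP induce, measured 6.37, 2.97 and 1.98 TPM at day 0, then 44.5, 169 and 138 TPM at day 2, and 60.1, 95.03 and 118 TPM at day 14. The lowest sample of days 2 and 14 was far above the highest day 0 sample. Its log2 fold changes were 4.53 (limma, SE 0.51, adjusted p = 7.3e-05) and 4.32 (limma, SE 0.51, adjusted p = 0.000172). Creb3l2, a membrane-bound transcription factor of secretory cells, had 37.6, 22.2 and 37.4 TPM, with log2 fold changes of -0.74, called, and -0.0015, not called.

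The genes most like Hspa5 over the 9 samples, outside the 46, were Txndc11 (Pearson r = 0.985), Tmem50b (0.977), Ccl25 (0.963), Trim13 (0.959) and Pacsin2 (0.958), as a description over samples that fall into 3 days. The members with the ERSE letters printed above were set beside those without. Of the 10 with ERSE, 1 was called higher and 6 lower at day 2, 2 and 2 at day 14, and 8 and 0 between day 2 and day 14, with a median of 0.76 in the last. Of the 28 matched members without it, the counts were 7 and 13, 8 and 8, and 12 and 2, with a median of 0.36. Over all tested genes, 27.1% were called higher and 31.9% lower at day 2, 36.2% and 18.8% at day 14, and 27.4% and 3.79% between the later days. Of the 10 with ERSE, 6 are chaperones, a class with a median of 0.86 between the later days. Element and class were not separated, and a part of the element in these changes was not tested. Members with the element thus include Hspa5, Calr and Creld2, which were called lower at day 2, as well as Derl3, which was called higher, and Ero1lb, which was not called.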

How the data were processed

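The deposited table holds gene TPM, which the authors made with Salmon per the submitters' processing notes and which sum to 999999 to 1000000 in each of the 9 columns. For Salmon's version and index, the build and the annotation, nothing is given in the sources used here, and depth is unknown. RNA came from a Qiagen kit and libraries from Novogene, per the labels. No 2 columns were identical.

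A gene was tested where 3 or more samples had 1 TPM or more. Values were log2(TPM + 1), so changes of low genes are understated. All 9 samples were fitted with limma 3.58.1 in R 4.3.3, with a mean per day and eBayes with a trend. Tests are two-sided, Benjamini-Hochberg adjustment ran over the 12693 genes, and a gene was called when its adjusted p was under 0.05. The script was tested on simulated data. Plots were made in matplotlib 3.10.9 under Python 3.11.15.

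The members, role classes and lists were chosen with earlier results of these data known. Sample values are given for the called members with the largest rise, fall or later change in each class, and for Hspa5, Hsp90b1, Xbp1, Ero1l and Ero1lb. P4hb, Ssr2 and Trib3 were added to these after their values were seen. For the other lists, the called genes with the largest rise and fall are named. Other settings tried were quantile normalization, median-of-ratios scaling, a pseudocount of 0.1 or 5, a filter at a mean of 5 TPM or none, the replicate number as block, a fit of only the days compared, removal of the 20 most abundant rows, and leaving out each sample. Removal of Mir6236 was chosen after seeing the data.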

Additional observations from a re-analysis of the deposited data

Results flagged for a closer look

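The change from day 0 differed between day 14 and day 2 for 26 of the 46 genes, by limma's test of day 14 against day 2 over all genes tested, with 3 samples a day. Of these, 24 were higher at day 14 and 2 lower, where 27.4% and 3.79% of all tested genes were called. With median-of-ratios scaling 12 were higher and 3 lower, where 13.1% and 11.1% of tested genes were called. Among the chaperones the difference in log2 change was 0.90 for Hspa5, 0.42 for Hsp90b1, 1.10 for Dnajb11, 0.83 for Dnajc3, 0.86 for Sdf2l1, 0.90 for Hyou1, 0.72 for Manf, 1.41 for Calr, 0.42 for Canx and 0.89 for Creld2. Among the disulfide enzymes it was -0.40 for P4hb, 0.78 for Pdia3, 0.72 for Pdia4, 0.64 for Pdia5, 0.995 for Pdia6, 0.60 for Txndc5, 0.67 for Dnajc10 and -1.60 for Ero1l. In the translocon, TRAP and oligosaccharyltransferase it was 0.34 for Sec61a1, 0.52 for Ssr1, 0.32 for Ssr2 and 0.59 for Dad1. In degradation it was 0.69 for Herpud1, 0.70 for Syvn1 and 0.36 for Derl2, and among the sensors 0.58 for Atf6b. Hspa5, Dnajb11, Dnajc3, Hyou1, Manf, Calr, Creld2, Pdia3, Pdia4, Pdia6, Ero1l, Dad1 and Syvn1, 13 of the 26, were called in all 19 alternatives run.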

How the results depend on the processing

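Of the members called, 26 of 34 at day 2 against day 0, 17 of 28 at day 14 against day 0 and 13 of 26 at day 14 against day 2 were called in all 19 alternatives run. Derl3 at day 2 was called in the 18 that test it, since the filter at a mean of 5 TPM removes it. The median log2 fold change at day 2 (-0.47) was -0.42 with median-of-ratios scaling, -0.12 with quantile normalization, -0.30 without the 20 most abundant rows and -0.35 without Mir6236. At day 14 (-0.049) it was -0.093 over genes with a mean of at least 5 TPM, -0.27 with median-of-ratios scaling and 0.020 with quantile normalization. Between day 2 and day 14 (0.42) it was 0.37 with a pseudocount of 5, 0.15 with median-of-ratios scaling, 0.14 with quantile normalization, 0.29 without the 20 most abundant rows and 0.34 without Mir6236. The 24 higher and 2 lower calls there became 12 and 3 with median-of-ratios scaling (1658 and 1408 over all genes, against 3474 and 481) and 13 and 4 with quantile normalization (1470 and 1905), and 1 was lower in a fit of those days alone. The cause was not tested.

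Without 1 sample each, the medians ranged from -0.54 to -0.41, -0.063 to -0.030 and 0.38 to 0.47. The counts ranged from 8 to 10 higher and 22 to 28 lower at day 2, 9 to 14 and 10 to 16 at day 14 (10 without day 0 replicate 2), and 18 to 27 and 1 to 2 between the later days. Of 66 counts for classes and lists, 37 moved by over 1.5 times in at least 1 alternative, most of them small counts. Under quantile normalization Ssr4 at day 2 (0.0068), Ero1lb at day 14 (-0.43) and Uggt2 at day 14 (-0.16) changed sign.

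A replicate block gave 9 higher and 25 lower calls at day 2, 12 and 15 at day 14, and 25 and 3 between the later days. Samples share only a replicate number: same-numbered samples had correlations of -0.071 to 0.318 after removal of the day means, and 4 of 9 samples correlated best with their own number. Depth is unknown, so no counting error can be given, and it weighs most on low genes such as Ero1lb and Derl3.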

Other observations

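Outside the 46 genes, 7 tested genes had ERSE letters in their RefSeq promoter window. They were named after their values were seen. Adcy3, an adenylyl cyclase, had log2 fold changes of 0.073 at day 2 and 0.996 at day 14 (limma, adjusted p = 0.000277 at day 14). Alg12, a mannosyltransferase that builds the N-glycan precursor in the ER, had 0.047 and 0.47 (limma, adjusted p = 0.0483 at day 14). Pan2, a deadenylase subunit, had 0.27 and 0.84, and the predicted gene Gm6566 0.41 and 1.54, with the day 14 values called. Hnrnpa3 had -1.08 and -0.65, Spats2l -0.69 and -0.72, and Zfp57 0.82 and 0.55, called at both times.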
